A study of Mus musculus with 6 samples.

Results

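A set of 39 genes of the actin cytoskeleton and the contractile apparatus was followed in fibroblasts of the tendon enthesis, the anchorage of tendon in bone. The genes were chosen by gene symbol from a list of actins, tropomyosins, myosins, their regulators and Srf. The rule itself uses no measured value, but the list was drawn up with earlier results of these data known, so counts over it are descriptions. All 39 were among the 17419 genes of the count table, and 37 had enough counts to be tested. The study sequenced RNA in bulk from 6 samples of SKG mice, 3 labelled diseased and 3 labelled un-diseased, numbered 1 to 3 in each group. SKG mice carry a mutation of Zap70 that makes them prone to autoimmune arthritis, and both groups are SKG. The sample titles carry NTS for diseased and UN for un-diseased, and the labels used here do not explain these letters, how disease was induced, the age of the mice, or whether each sample is a different mouse. If they are not, the p-values measure technical spread only.

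Actin filaments are built from actin monomers and stabilised by tropomyosins, and they generate force when myosin II motors pull on them. Smooth muscle cells and myofibroblasts, the contractile form of fibroblasts seen in healing and fibrotic tissue, use dedicated isoforms such as smooth muscle actin (Acta2), while most other cells rely on the cytoplasmic actins Actb and Actg1. Serum response factor (Srf) binds a short DNA element called the CArG box in many of these genes, and its cofactors Mrtfa and Mrtfb respond to the pool of free actin monomers.

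Total counts lay between 16720605 and 18290870 per sample, and the 39 genes together took 1.06% to 1.16% of them. Fibroblast and tendon markers were abundant in all samples: the 10 of that list summed to 60444 to 114835 CPM (counts scaled to each library's size with TMM factors), led by the collagen gene Col3a1, and 0 of 10 passed the edgeR test, with 6 at an unadjusted p under 0.05. With the replicate number as a block, 3 of the 10 were higher (Thy1, Scx and Mkx, named after their values were seen). The marker counts here are to be read against all 13264 tested genes. Of those, 3.73% passed the edgeR test, 27.8% had an unadjusted p under 0.05 and 23.9% passed with the block. In every diseased sample, 16.5% of all genes were higher than in any un-diseased one, and 15.4% were lower. Skeletal muscle markers were near 0, with 14.6 to 24.2 CPM over 18 genes, most of it from Eno3. Ckm and Myh4 of this list, picked out after their values were seen, were at or below 0.261 CPM in every sample. Others were higher, such as Tnnt3 at 1.57 to 2.43 CPM in diseased and 2.57 to 3.44 in un-diseased samples. Of 4 tested 0 passed, 1 of them at an unadjusted p under 0.05, while 2 were lower with the block (Eno3 and Ttn). All 4 had a negative log2 fold change, with a median of -0.58, and 2 were lower in every diseased sample. Of 8 tested endothelial markers 1 rose (Erg), 6 had an unadjusted p under 0.05, 5 were higher and 1 was lower in every diseased sample, and the median log2 fold change was 0.78. With the block 3 were higher and 1, Tek, was lower. The sum over that list was 64.6 to 89.2 CPM in diseased and 72.3 to 98.7 in un-diseased samples, much of it from Tek. Without Tek it was 32.8, 47.4 and 39.8 CPM in diseased and 27.3, 25.4 and 25.1 in un-diseased samples, with no overlap, a split made after the values were seen. Macrophage markers summed to 220 to 582 CPM over 16 genes in diseased samples, against 48.6 to 283 in un-diseased ones, and these ranges overlapped. All 16 had a positive log2 fold change, 0 passed the edgeR test (6 at an unadjusted p under 0.05), and 16 passed with the block. The most abundant, Lyz2, had 166, 182 and 83.5 CPM in diseased and 41.7, 81.9 and 7.75 in un-diseased samples. Macrophages also express Actb and other members of the list, and the part of macrophages and endothelial cells in the results below was not tested. In bulk samples, fewer cells of a type and less RNA per cell cannot be told apart.

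Of the 37 tested genes, 5 rose in diseased samples and 0 fell: Tpm2, Cnn2, Acta2, Myl9 and Actn1. The change was 2.06-fold to 2.41-fold in the first 4 and 1.60-fold in Actn1. The quasi-likelihood test of edgeR, adjusted over all genes after Benjamini and Hochberg, thus called 13.5% of these genes, against 3.73% of all 13264 (1.61% higher and 2.13% lower). The other 32 did not pass, and 13 of the 37 had an unadjusted p under 0.05, as did 27.8% of all genes. The median log2 fold change of the 37 was 0.13 (diseased minus un-diseased), beside 0.02 over all genes, with 24 positive and 13 negative values. It ran from -0.71 in Myh11 to 1.27 in Myl9, and 15 genes lay within 0.2 of 0.

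Tpm2, the tropomyosin typical of smooth and slow skeletal muscle (gene 22004, GRCm38 chromosome 4, 43513726 to 43523583), had 40.6, 37.3 and 31.9 CPM in diseased replicates 1, 2 and 3, against 14.8, 15.2 and 17.4 in un-diseased ones. Every diseased sample was far above every un-diseased one. Its log2 fold change was 1.21 (SE 0.13, adjusted p = 0.0234 by edgeR). Acta2, smooth muscle actin and the usual marker of myofibroblasts (gene 11475, chromosome 19, 34240336 to 34255585), had 24.7, 36.5 and 27.0 CPM in diseased and 11.3, 14.7 and 15.2 CPM in un-diseased samples. Diseased replicate 2 was the highest, and the groups did not overlap. The change was 1.10 (SE 0.19, adjusted p = 0.0292 by edgeR).

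Myl9 encodes the regulatory light chain of smooth muscle myosin, whose phosphorylation switches contraction on (gene 98932, chromosome 2, 156775408 to 156781657). It was scarce, with 4.99, 6.97 and 4.80 CPM in diseased and 1.98, 2.57 and 2.42 CPM in un-diseased samples, resting on 38 to 112 counts. The lowest diseased sample was still above the highest un-diseased one, and the change was 1.27 (SE 0.24, adjusted p = 0.0368 by edgeR). Cnn2, a calponin found in many non-muscle cells that binds actin and slows myosin (gene 12798, chromosome 10, 79988600 to 79995400), had 29.9, 38.5 and 27.4 CPM in diseased and 16.2, 16.3 and 14.1 in un-diseased samples. It changed by 1.04 (SE 0.15, adjusted p = 0.0254 by edgeR), again with replicate 2 highest among the diseased samples.

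Actn1, alpha-actinin-1, crosslinks actin filaments in stress fibres and at focal adhesions (gene 109711, chromosome 12, 80167542 to 80260420). The un-diseased samples were nearly equal at 117, 116 and 117 CPM, and the diseased ones had 164, 222 and 175. The change was 0.68 (SE 0.13, adjusted p = 0.0417 by edgeR). Its close relative Actn4 had 283 ± 25.9 CPM with disease and 266 ± 8.98 without (SD, n = 3 each), a log2 fold change of 0.09 (SE 0.12) that did not pass. The groups overlapped in none of the 5 genes, so each had to be higher in the diseased sample of every pair sharing a number. The log2 ratios within these pairs ran from 0.48 for Actn1 in pair 1 to 1.45 for Tpm2 in pair 1.

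**Figure D1:**
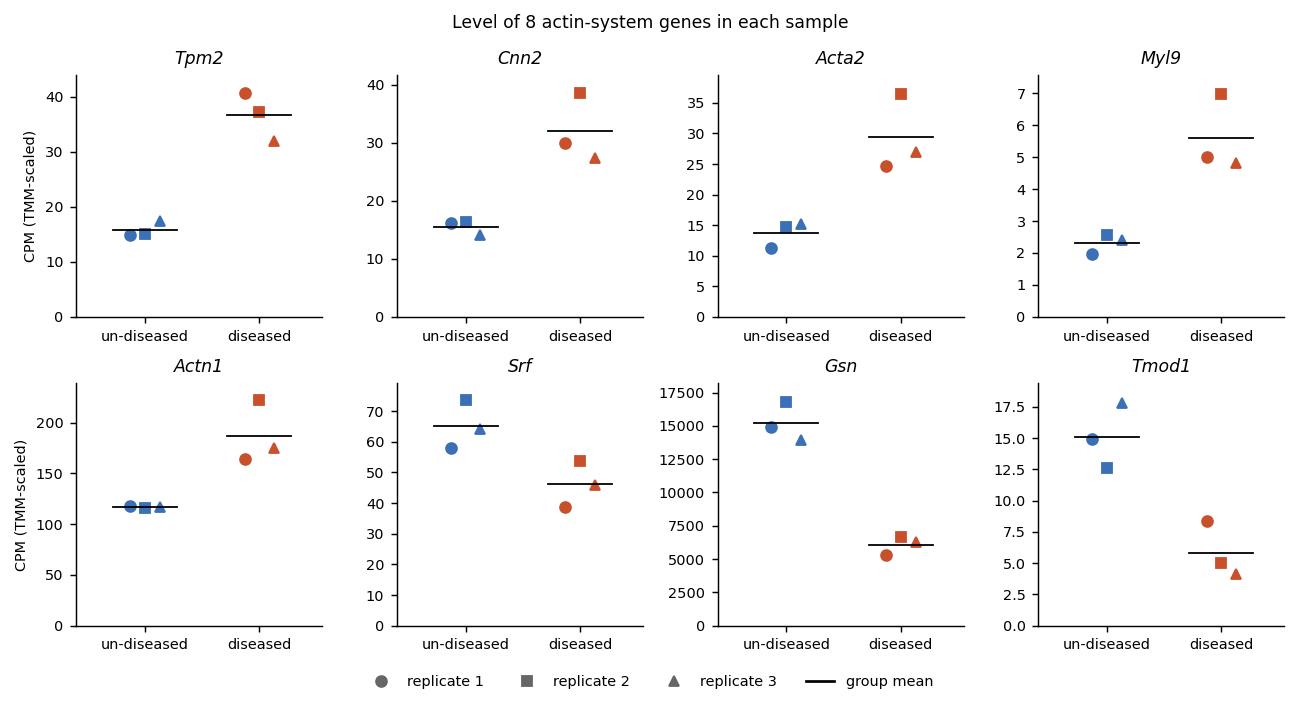
CPM of 8 genes in each sample, un-diseased in blue and diseased in orange, with replicates 1, 2 and 3 as circle, square and triangle and the group mean as a line; each axis starts at 0. Tpm2, Cnn2, Acta2, Myl9 and Actn1 are higher in every diseased sample, and Srf, Gsn and Tmod1 are lower in every one, the Srf difference not passing the test.

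These 5 calls depended on which samples were kept. Without diseased replicate 3, or without un-diseased replicate 2, 0 of the genes passed. Without diseased replicate 1, 1 passed (Tpm2), as did 1 without un-diseased replicate 3 (Tpm2), and 2 without diseased replicate 2 (Tpm2 and Cnn2). Without un-diseased replicate 1, 7 passed, the 5 with Csrp1 and Csrp2. The counts over all genes moved in the same settings, to 2 higher and 3 lower without diseased replicate 3. The fold changes of the 5 moved little: Tpm2 stayed at 1.12 or more, and the ranges were 0.92 to 1.20 for Acta2, 0.88 to 1.14 for Cnn2, 1.08 to 1.36 for Myl9 and 0.54 to 0.76 for Actn1 over all 13 alternatives.

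The labels used here number the samples but state no pairing, and the block was chosen from correlations in these same counts. Over the 37 genes that correlation was -0.05 for replicate 3. With the replicate number as a block, 12 genes were higher and 3 lower, or 40.5% of the 37, where the background was 23.9% of all genes (10.5% higher and 13.3% lower). The 5 were among the 12. Besides them Tagln, Myl6, Myh9, Tpm1, Cnn3, Palld and Csrp2 were higher, with blocked adjusted p by edgeR from 0.0122 for Cnn3 to 0.0303 for Myl6, and Srf, Synpo2 and Actg1 were lower, at 0.00759, 0.0352 and 0.0442. DESeq2 without the block called 10 higher and 1 lower, where it called 4.79% of all genes higher and 6.65% lower. In the authors' deposited table, 10 of the 39 genes had a q-value below 0.05, all higher in diseased samples, where 3.3% of its 17419 genes were higher and 4.52% lower.

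Of 10 tested genes grouped here as smooth muscle isoforms, 3 rose (Tpm2, Acta2 and Myl9), 0 fell and 7 did not pass. The grouping is loose, since Tpm2, Des and Synpo2 are also genes of other muscle. The share called was 30%, against 3.73% of all genes, and rests on few genes. Tagln, transgelin or SM22, had 9.39, 14.3 and 9.55 CPM in diseased and 5.32, 9.45 and 7.56 in un-diseased samples, which overlapped, and edgeR gave a change of 0.58 (SE 0.26) at adjusted p = 0.195, or 0.0257 when blocked. Its estimated counts were not whole numbers in any sample, and its exons overlap those of Pcsk7 on the opposite strand in GENCODE, so part of its reads may have been shared. Actg2, enteric smooth muscle actin, had only 5 to 32 counts per sample and a change of 1.21 with an SE of 0.56, which did not pass.

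The late markers of differentiated smooth muscle were scarce in both groups. Myh11, smooth muscle myosin heavy chain, had 0.734, 0.934 and 0.270 CPM in diseased and 1.04, 1.25 and 0.867 in un-diseased samples, and its change of -0.71 (SE 0.46) did not pass. Cnn1, the smooth muscle calponin, had 6, 2 and 4 counts in diseased replicates 1, 2 and 3, against 2, 1 and 2 in un-diseased ones. Lmod1, leiomodin of smooth muscle, had 3, 1 and 0 counts and 2, 1 and 2 counts. Both lie near 3 counts, the limit that a count of 0 allows (0.147 to 0.188 CPM per sample, for counting error only), and neither was tested. Any change in them was not detectable at this depth.

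Des, the muscle intermediate filament desmin, had 7.14, 6.48 and 8.31 CPM in diseased and 7.92, 7.33 and 7.44 in un-diseased samples, and the groups overlapped. Mylk, the kinase that phosphorylates the myosin light chain, had 33.3, 37.7 and 33.9 CPM against 24.8, 42.0 and 53.2, and Smtn, smoothelin, 66.8, 84.5 and 69.1 against 69.8, 64.8 and 71.7. Neither passed, and their ranges overlapped too. Synpo2, an actin-bundling protein of muscle Z-discs, had a change of -0.48 (SE 0.22; adjusted p = 0.199 by edgeR).

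Markers of mural cells, which surround vessels and also express smooth muscle genes, had overlapping sums. The 9 in the table came to 429 to 518 CPM in diseased and 435 to 445 in un-diseased samples, and of the 9 tested 0 passed edgeR's test (2 at an unadjusted p under 0.05), with a median log2 fold change of 0.09. Rgs5, a pericyte gene, had 39.5, 33.6 and 30.2 CPM in diseased and 36.0, 22.1 and 40.2 in un-diseased samples. Pdgfrb, the most abundant of the list and also a fibroblast gene, had a change of 0.41 (adjusted p = 0.110 by edgeR), and it was higher with the block. Abcc9, named as the other gene called there, was lower in every diseased sample. It had 25.1, 42.0 and 29.0 CPM in diseased and 47.5, 79.0 and 60.5 in un-diseased samples. Its change was -0.96 (SE 0.24, adjusted p = 0.0691 by edgeR and 0.00138 with the block). The block thus called 22.2% of this list, against 23.9% of all genes.

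**Figure D2:**
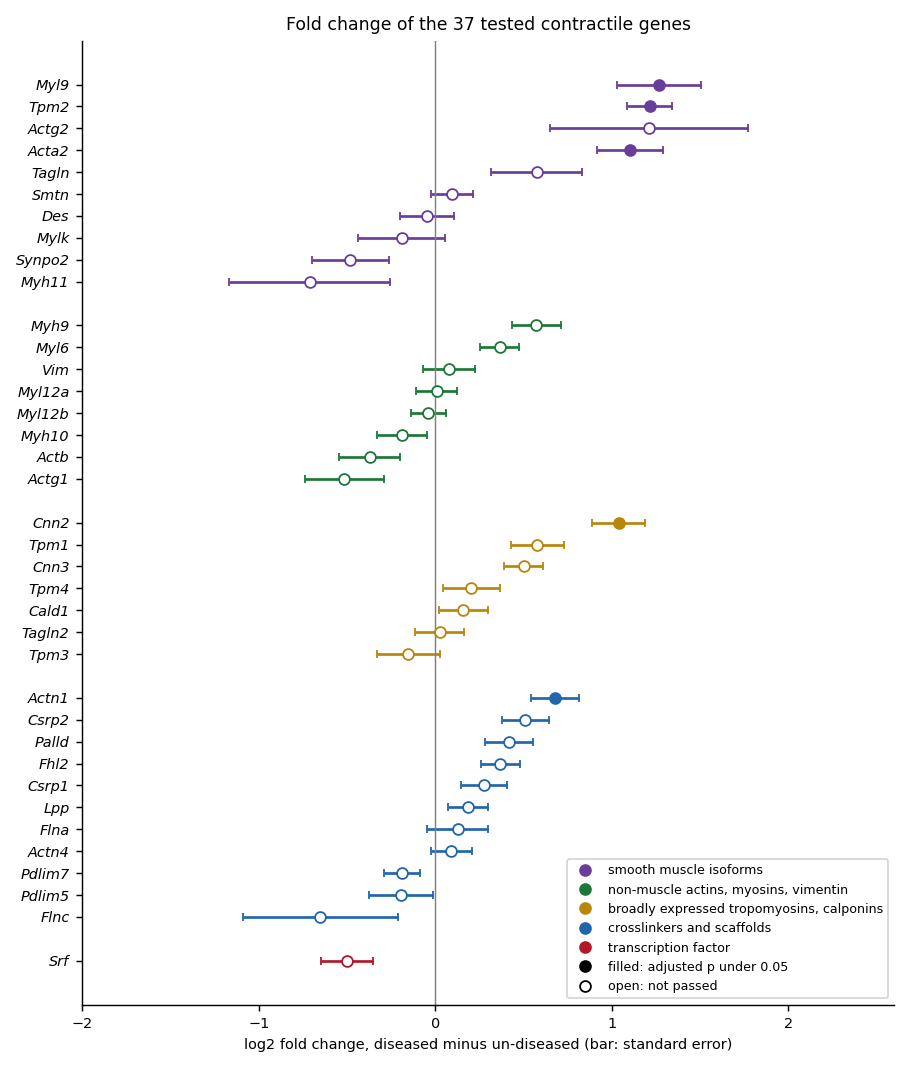
Log2 fold change (diseased minus un-diseased) of the 37 tested genes with its standard error as a bar, grouped by role and coloured by it; filled points passed the test and open ones did not. Values run from -0.71 in Myh11 to 1.27 in Myl9, and the 5 filled points are Myl9, Tpm2, Acta2, Cnn2 and Actn1.

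Cytoplasmic actins, non-muscle myosins and vimentin had 0 of 8 called by edgeR, 2 of them at an unadjusted p under 0.05, with a median log2 fold change of -0.02. Over all genes 3.73% were called and 27.8% had an unadjusted p under 0.05. Actg1, gamma-actin, was the most abundant member by length in un-diseased samples. It had 1276, 2024 and 1400 CPM in diseased and 1830, 2434 and 2453 in un-diseased samples, so only diseased replicate 2 reached into the un-diseased range. The change was -0.52 (SE 0.22), at adjusted p = 0.185 by edgeR and 0.0442 when blocked. Actb, beta-actin, had 519, 647 and 571 CPM against 602, 786 and 862, a change of -0.37 (SE 0.17, adjusted p = 0.209 by edgeR). Both have many processed pseudogenes, so reads shared between copies make their counts uncertain, although all their deposited values were whole numbers.

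The myosin genes had fold changes of both signs. Myh9, the heavy chain of non-muscle myosin IIA, had 421, 513 and 428 CPM in diseased and 276, 304 and 336 in un-diseased samples, with no overlap. Its change of 0.57 (SE 0.14) missed the threshold at an adjusted p of 0.0638 by edgeR and passed with the block (0.0143) and in DESeq2 (0.00267). Myh10, the heavy chain of myosin IIB, had 50.8, 67.4 and 51.0 CPM against 60.5, 71.4 and 60.8, a change of -0.19 (SE 0.14) that did not pass. Myl6, the essential light chain, was higher in every diseased sample, at 228, 195 and 214 against 174, 159 and 161 CPM (log2 fold change 0.36, SE 0.11, adjusted p = 0.1 by edgeR and 0.0303 with the block). Myl12a and Myl12b, the regulatory light chains of non-muscle myosin, had changes of 0.01 and -0.04. They are neighbours with overlapping exons and values that were not whole, so their counts are uncertain. Vim, vimentin, the intermediate filament of mesenchymal cells, stood at 3614 ± 127 CPM with disease and 3426 ± 159 without (SD, n = 3 each), and the groups overlapped.

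Among the broadly expressed tropomyosins, caldesmon, transgelin-2 and calponins, 1 of 7 rose (Cnn2), or 14.3%, where 3.73% of all genes were called. Tpm1 had 142, 180 and 150 CPM in diseased and 93.1, 99.4 and 124 in un-diseased samples, and Cnn3, the acidic calponin, 177, 199 and 188 against 128, 125 and 146. In both genes the groups did not overlap. They missed the threshold, with adjusted p of 0.0726 and 0.0538 by edgeR, and passed with the block (0.0139 and 0.0122). Tpm4, Cald1, Tagln2 and Tpm3 had log2 fold changes of 0.20, 0.16, 0.02 and -0.15, none past the threshold, with overlapping groups.

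Of the 11 crosslinkers and scaffold proteins, Actn1 rose and 10 did not pass, or 9.09% called where 3.73% of all genes were. Csrp2, a LIM protein of smooth muscle, and Palld, palladin, a stress-fibre scaffold, were higher in every diseased sample, with changes of 0.51 (SE 0.13) and 0.42 (SE 0.14). They missed the threshold and passed with the block (adjusted p by edgeR of 0.0284 and 0.024). Fhl2, a LIM cofactor of Srf, was also higher in every one, with a change of 0.37 (SE 0.11, adjusted p = 0.098 by edgeR). Flnc, the muscle filamin, varied most: it had 142, 384 and 191 CPM in diseased and 199, 419 and 509 in un-diseased samples, and its change of -0.65 had an SE of 0.44. Flna, the common filamin, had a change of 0.13 (SE 0.17). Csrp1, Lpp, Pdlim5 and Pdlim7 had changes of 0.27, 0.18, -0.19 and -0.19, and Pdlim7 was lower in every diseased sample by a small margin.

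Across the 37 genes the groups did not overlap for 14, with 12 higher and 2 lower in diseased samples. The upward share is to be read against 16.5% and the downward share against 15.4% of all genes. Diseased replicate 2 had the highest value of its group in 30 of the 37 genes, and diseased replicate 1 the lowest in 25. Un-diseased replicate 1 was the lowest of its group in 22. Macrophage marker sums were also highest in diseased replicate 2, at 582 CPM.

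Srf, the transcription factor of the list (gene 20807, chromosome 17, 46546838 to 46558267), was lower in every diseased sample, at 38.7, 53.7 and 45.9 CPM against 58.0, 73.6 and 64.2. Its change of -0.50 (SE 0.15) did not pass with edgeR (adjusted p = 0.0958) and passed with the block (0.00759) and in DESeq2 (0.0415).

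The CArG box, the element that Srf binds, was searched for by its strict form in the 250 bases before RefSeq transcript starts (GRCm38.p6), on both strands, which this symmetric motif covers at once. Of the 34 genes with a window, 6 (17.6%) held at least 1 box, against 1.62% of all 27025 genes with a window. The list holds Srf and genes of a kind that Srf is known to bind, so this gap describes how the list was chosen. The 27025 genes also include genes that were not tested here. These matches are shown because they fall in genes that differ in direction: Cnn2 and Myl9, which rose, Myl6 and Fhl2, which were higher in every diseased sample without passing, and Actg1 and Srf, whose fold changes were negative. Each sequence is 5′ to 3′ on the gene's strand with the box in capitals.
Cnn2 (chr10:79988534-79988563, plus strand): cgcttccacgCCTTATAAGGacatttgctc
Myl9 (chr2:156775293-156775322, plus strand): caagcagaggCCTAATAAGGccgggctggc
Myl6 (chr10:128493040-128493069, minus strand): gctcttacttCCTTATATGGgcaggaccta
Fhl2 (chr1:43163973-43164002, minus strand): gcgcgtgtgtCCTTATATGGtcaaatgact
Actg1 (chr11:120348566-120348595, minus strand): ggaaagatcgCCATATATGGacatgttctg
Srf (chr17:46556215-46556244, minus strand): CCATATAAGGagcggcctcgCCATAAAAGG
The box begins 56 bases before the transcript start of its window in Cnn2, 161 in Myl9, 50 in Myl6, 31 in Fhl2 and 90 in Actg1. Srf itself holds 2 boxes, beginning 82 and 62 bases before a start, and a second window of Fhl2 holds another box 96 bases before another start. In Myl9, Myl6, Fhl2 and Srf these starts are not the outermost base of the gene. The stretches of Myl6, Fhl2 and Srf lie inside the gene's RefSeq span. The windows of Acta2, Tpm2 and Actn1 hold no strict match, which says only that these letters are not there, and a match is not evidence of binding. The stretch of Myl6 overlaps an exon annotated in GENCODE. Windows with a match thus belonged to genes with positive and with negative fold changes.

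The MCAT element, CATTCC or its reverse complement GGAATG, which TEAD factors bind in muscle genes, was in the windows of 13 of the 34 genes (38.2%), against 14.4% of all genes. A gene was counted if any of its windows held the element. As the list was chosen for contractile genes, this gap too is a description, and a match is not evidence of binding. Acta2 was among them, as were Tpm1, Mylk, Smtn and Myh10. None of the 6 genes with a CArG box held it.

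Compared by level per kilobase of merged exons (GENCODE M21), cytoplasmic actins and vimentin had the highest levels. In un-diseased samples Actg1 had 842 ± 133 CPM per kilobase, Vim 722 ± 33.6 and Actb 280 ± 49.8. Actg1 and Vim did not differ beyond their spread. Tpm4, Tagln2 and Flna followed at 140 ± 17.6, 123 ± 9.24 and 88.5 ± 7.22. Acta2 had 6.24 ± 0.97 and ranked 28 of 39, next to Cnn2 at 6.32 ± 0.497 and Myh10 at 6.14 ± 0.597, from which it did not differ beyond the spread. In diseased samples Vim led with 762 ± 26.7, ahead of Actg1 with 589 ± 151, and Acta2 had 13.4 ± 2.84 CPM per kilobase and ranked 24. The per-length values use all annotated exons of a gene, so they are approximate for genes with many isoforms.

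**Figure D3:**
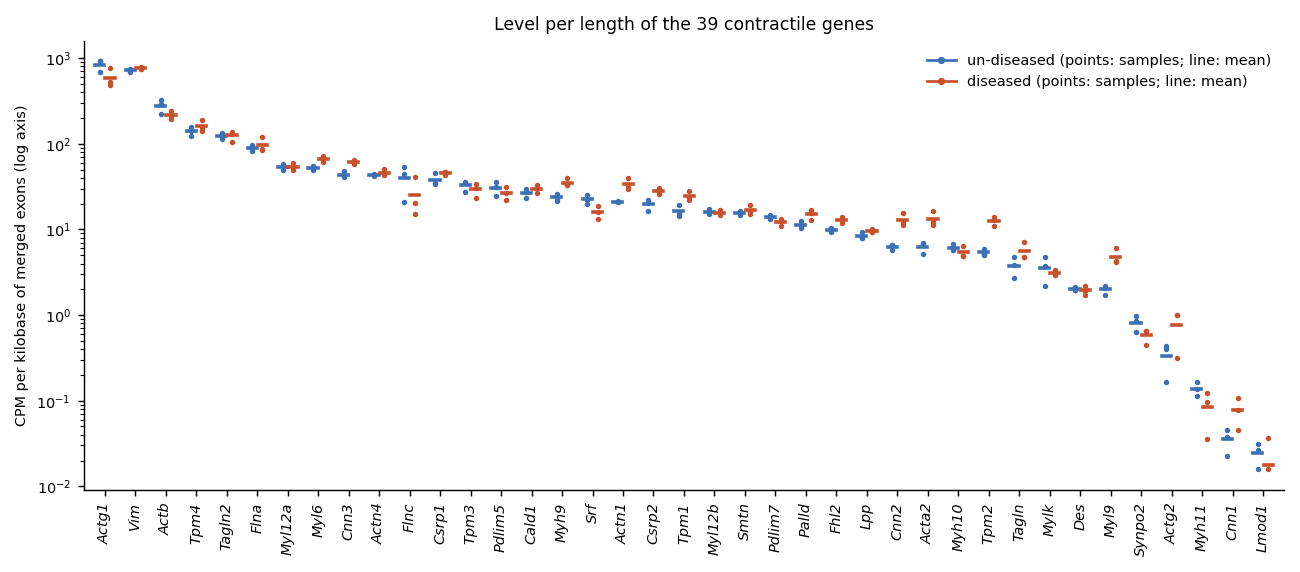
CPM per kilobase of merged exons on a log axis for the 39 genes, ordered by the un-diseased mean; points are samples and lines are group means, un-diseased in blue and diseased in orange. Actg1, Vim and Actb lead and Myh11, Cnn1 and Lmod1 are last; 1 diseased sample of Lmod1 is at 0 and is not drawn.

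Ratios of related genes within a sample do not depend on how libraries were scaled, and 8 of 9 chosen pairs had enough counts in every sample. They are given as descriptions with no test. Acta2 counts were 4.76%, 5.64% and 4.72% of Actb counts in diseased replicates 1, 2 and 3, against 1.87%, 1.87% and 1.76% in un-diseased ones. The log2 ratio differed by 1.46, beside the log2 fold change of 1.10 for Acta2 and -0.37 for Actb. Tpm2 was 28.7%, 20.7% and 21.3% of Tpm1 counts in diseased and 15.9%, 15.2% and 14.1% in un-diseased samples. Acta2 and Tpm2 were thus higher against their broad relative in every diseased sample.

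Among the myosin heavy chains, both ratios to Myh9 were lower in every diseased sample. Myh10 was 12.0%, 13.1% and 11.9% of Myh9 counts in diseased and 21.9%, 23.5% and 18.1% in un-diseased samples, a log2 difference of -0.77 with no overlap. This stands beside log2 fold changes of 0.57 for Myh9 and -0.19 for Myh10, neither passing the edgeR test. Both ratios share the higher Myh9 as denominator, so they are not separate falls. Myh11 was 0.174%, 0.182% and 0.063% of Myh9 counts against 0.378%, 0.411% and 0.258%, on as few as 5 counts. For the light chains, Myl9 was 2.19%, 3.58% and 2.24% of Myl6 counts against 1.14%, 1.61% and 1.50%. Tagln against Tagln2 (log2 difference 0.57) and Actg1 against Actb (-0.17) overlapped between the groups, while Tpm4 against Tpm1 (-0.38) did not. The Cnn1 to Cnn2 ratio was not formed, since Cnn1 had as few as 1 count.

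**Figure D4:**
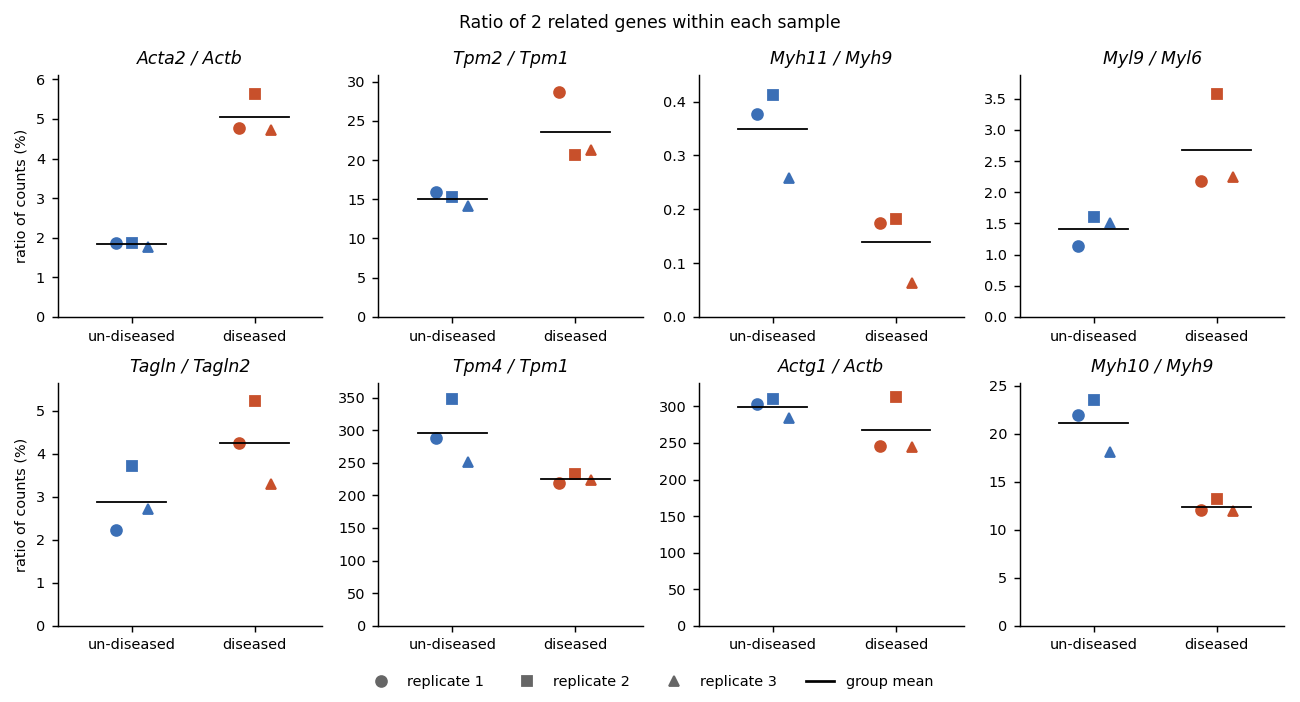
Count ratio of 2 related genes within each sample, in percent, for 8 pairs, with replicates as circle, square and triangle and the group mean as a line; each axis starts at 0. Acta2 to Actb is 4.72% to 5.64% in diseased and 1.76% to 1.87% in un-diseased samples, and Myh10 to Myh9 is lower in every diseased sample.

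As a share of the level per kilobase of the 4 actin genes in a sample, a description chosen after seeing the values, Acta2 made up 1.64%, 1.63% and 1.63% in diseased replicates 1, 2 and 3, against 0.558%, 0.549% and 0.552% in un-diseased ones. The spread within a group was 0.447% and 0.869% of the mean, smaller than the counting error of Acta2 itself, which was 4.13% at 586 counts and 6.80% at 216 counts, so the closeness of these values is not a measure of their precision. Diseased replicate 2, which had the most Acta2, also had the most Actg1 and Actb of its group. Tpm2 made up 6.98%, 4.83% and 5.05% of the 4 tropomyosins in diseased and 3.02%, 2.44% and 2.98% in un-diseased samples, and Tpm3 11.6%, 12.9% and 14.1% against 16.2%, 16.9% and 17.2%. Tpm4 was the largest share in every sample, from 70.2% to 73.5%. Among calponins, Cnn2 made up 17.3% ± 2.02 with disease and 12.7% ± 1.76 without (SD, n = 3 each), the rest being nearly all Cnn3.

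**Figure D5:**
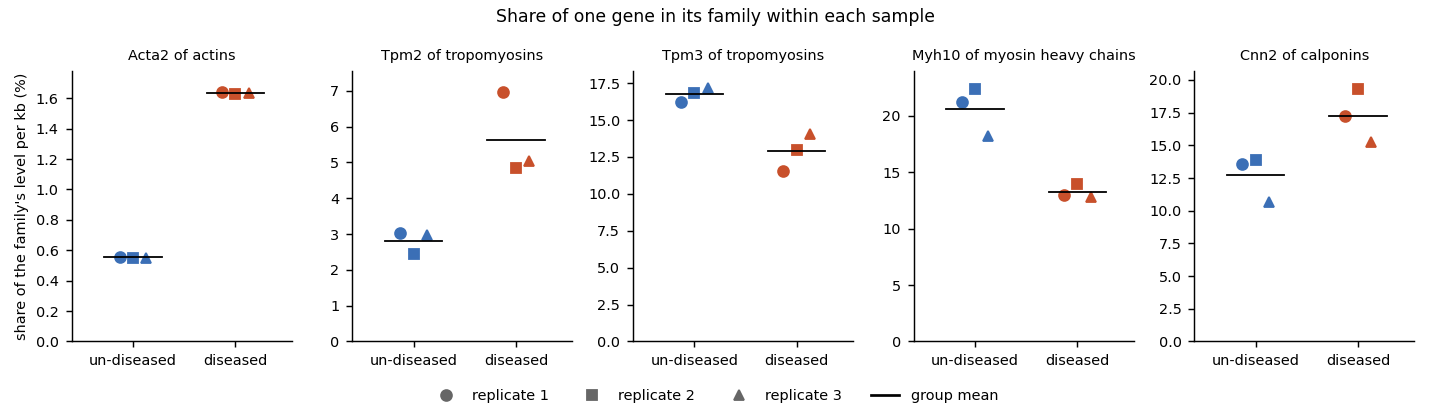
Share of Acta2 among 4 actins, Tpm2 and Tpm3 among 4 tropomyosins, Myh10 among 3 myosin heavy chains and Cnn2 among 3 calponins, in percent of the family's level per kilobase in each sample; lines are group means and each axis starts at 0. Acta2, Tpm2 and Cnn2 take a larger share in every diseased sample, and Tpm3 and Myh10 a smaller one.

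Genes for proteins that assemble, sever and cap actin filaments were taken from a list of their own. Of these 41, 0 rose and 2 fell, 4.88% against the 3.73% of all genes, with a median log2 fold change of -0.01 and 10 at an unadjusted p under 0.05. With the block 4 were higher and 5 lower (22%, against 23.9% of all genes). Gsn, gelsolin, which severs and caps filaments, fell from 14901, 16761 and 13973 CPM in un-diseased replicates 1, 2 and 3 to 5340, 6635 and 6248 in diseased ones. It was the most abundant gene of this list in both groups, and every diseased sample had less than any un-diseased one. The change was -1.32 (SE 0.19, adjusted p = 0.0254 by edgeR). The sum over the list was 19691 to 22661 CPM in un-diseased and 10675 to 12628 in diseased samples. Without Gsn the other 40 genes summed to 5318, 5901 and 5718 CPM in un-diseased and 5335, 5993 and 5479 in diseased samples, which overlapped, so the gap in the sum was that of Gsn.

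Tmod1, tropomodulin-1, which caps the pointed ends of filaments, fell from 14.96, 12.6 and 17.8 CPM to 8.36, 5.04 and 4.10 (log2 fold change -1.37, SE 0.27, adjusted p = 0.0433 by edgeR). Its estimated counts were not whole, so some of its reads may have been shared with another gene. Both falls lost their call without single samples, with adjusted p by edgeR up to 0.135 for Gsn and 0.158 for Tmod1 without diseased replicate 3.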

How the data were processed

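RNA of 6 samples was read in pairs on a BGISEQ-500, per the labels' protocols. The deposited table, made by the authors, gives estimated counts per gene and sample, not normalized, of which 9.61% were not whole. The build was GRCm38, and the tools named are RSEM 1.3.1, HISAT2 2.0.4 and DESeq2 1.4.5, without roles or order, per the submitters' processing notes. The authors' deposited table also holds log2 ratios (un-diseased over diseased), a p-value and a q-value per gene, used only for comparison.

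Counts were rounded, genes kept with filterByExpr (least count 10), libraries scaled with TMM, and the groups compared by edgeR 4.0.16 (R 4.3.3; quasi-likelihood test, Benjamini-Hochberg adjustment over 13264 genes, threshold 0.05). The SE is the log2 fold change over the square root of its F statistic. Pair log2 ratios add 0.1 CPM to each value. Alternatives used limma 3.58.1 (voom), DESeq2 1.42.0, other scalings and filters, the replicate block, and each sample left out. By the naming rule, every member may be named. Of the actin dynamics list, up to 4 called genes with the smallest adjusted p may be named, or else the most abundant. Of each marker list, the rule names its most abundant gene. Thy1, Scx, Mkx, Ckm, Myh4, Tnnt3, Ttn, Erg, Rgs5 and Abcc9 were named outside this rule. Members and lists were chosen with earlier results of these data known. One further list is not reported here. The fitting step was tested on simulated data.

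Samples with the same number deviated together from their group means, with correlations of 0.487, 0.578 and 0.276 over 13264 genes for replicates 1, 2 and 3. The numbers come from the labels, which state no pairing, and were taken to pair the samples on this ground. The block was thus chosen from the same counts that it was used to test. Over the 37 tested members the correlations were 0.262, 0.654 and -0.05. Samples of one group differed by a chi-square per gene of 24.2 to 58.5, far more than sampling noise. Positions and promoter windows are from RefSeq (GRCm38.p6), matched by gene number for all 39 members and 34 of them. Where the labels give no annotation or strand setting, it is not given in the sources used here. Exons of 4 members overlap another counted gene: Tagln, Actn4, Myl12a and Myl12b, the same 4 whose counts were not all whole.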

Additional observations from a re-analysis of the deposited data

How the results depend on the processing

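All 5 calls held under each of the 7 alternatives that kept every sample: both other scalings, both other filters, DESeq2, limma-voom and the replicate block. Under the 6 that left out 1 sample, the number of members higher ran from 0 to 7 and the number lower stayed at 0; over all genes 2 to 365 were higher and 3 to 722 lower, beside 213 and 282 with all samples. The counts over all genes rose without un-diseased replicate 1 and fell without any other single sample. The cause was not tested. With upper-quartile scaling 9 members were higher, and 417 of all genes were higher and 288 lower; this scaling shifted the median of all genes by 0.08. DESeq2 gave 10 members higher and 1 lower, with 635 and 882 of all genes. The replicate block gave 12 and 3 members, with 1397 and 1770 of all genes.

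Of 479 values of single members under the alternatives, 420 kept direction and call, 21 lost the call, 23 gained it and 15 changed sign. The sign changes were in members near 0. Over the settings that left out 1 sample, Mylk ran from -0.45 to 0.069, Des from -0.15 to 0.030, Smtn from -0.017 to 0.14, Myl12a from -0.060 to 0.051, Myl12b from -0.096 to 0.014, Tagln2 from -0.055 to 0.12 and Flna from -0.050 to 0.22. With upper-quartile factors Des was 0.036 and Myl12b 0.047, and Myl12a was -0.0071 with RLE size factors and -0.0072 in DESeq2. No isoform ratio changed direction when a sample was left out or counts were not rounded. By counts instead of per length, a form added after seeing the data, the family shares kept their direction, with differences in percentage points of 0.895 for Acta2, 4.83 for Tpm1, -7.09 for Tpm3 and -0.162 for Myh11. Actg2, Myh11 and Myl9 rest on the fewest counts of the tested members.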
